A study of Mus musculus with 15 samples.

Results

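Double-labelled and red cells sorted from the E18.5 mouse thalamus were compared on 6 of the 15 arrays of the series, 3 per population, chosen by their sample titles and joined into 3 pairs by replicate number. All embryos carried Gbx2CreER-IRES-EGFP/+ and R26lsl-tdTomato/+ on a c57/BL6 background, and 4 mg tamoxifen was given at E9. Both populations therefore shared the heterozygous Gbx2 allele, the tamoxifen and the tdTomato mark, which a Cre driven by the Gbx2 locus leaves in the descendants of cells that once used this locus. They differed in EGFP, which the same locus makes while it is active. The labels give neither the sorting gates nor whether embryos were pooled. Green cells of the same stage (3 arrays, same genotype and tamoxifen) stand beside them as a reference level. E14.5 green and red cells (3 arrays each, same genotype, tamoxifen at E9.5) give the same genes on other arrays.

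Gbx2 is a homeodomain transcription factor that young thalamic neurons switch on as they leave the cell cycle, and it is known for its role in the identity and axon growth of these neurons. It is also known from the early anterior hindbrain. Many thalamic nuclei later lose it, so EGFP from its locus separates cells that still use the locus from marked cells that no longer do. Since the populations were sorted on that EGFP, a difference in Gbx2 follows from the sort.

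Values are log2 signals as deposited, and a difference is always double-labelled minus red. The thalamic factor Tcf7l2 stood between 11.77 and 12.03 in double-labelled and between 11.30 and 11.73 in red cells, and Slc17a6, the vesicular glutamate transporter of thalamic neurons, between 9.55 and 10.50 and between 9.38 and 10.49. Gad1, which makes GABA, stood between 5.58 and 5.82 and between 5.68 and 6.03. In replicate 1 of both populations the SD of all values was lower (1.31 and 1.34) than in the other 4 arrays (1.44 to 1.51). Deviations from the population means correlated at 0.67, 0.50 and 0.49 between arrays of the same number. Between arrays of different numbers the correlation lay between -0.61 and 0.43, and every array correlated best with its own number. The comparison was made within pairs by its definition, not because of these correlations.

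Limma called 15 of 16635 genes (0.0902%) at an adjusted p under 0.05, 6 higher (0.0361%) and 9 lower (0.0541%) in double-labelled cells. All 15 differed in 1 direction in the 3 pairs, against 15.3% of all genes higher and 9.56% lower in all 3 pairs. For 14 of them the groups did not overlap, which held for 4.18% of all genes. Being called on these same values favours both traits, so they add no support to the calls. The same holds for genes named below for a small p. At an unadjusted p under 0.05 stood 1351 genes (8.12%), 847 higher and 504 lower. The median difference of all genes was 0.015. With so small a share called, a gene list with no called member is no result about that list. Without a replicate block limma called 4 genes, Th, Aldh1a1, Slc6a3 and Chrnb3, and 407 had an unadjusted p under 0.05. Without pair 1, the arrays of lower SD, 1 gene passed (Chrnb3), without pair 2, 7 genes, and without pair 3, 2 genes (Th and Chrnb3). The labels call the replicates biological and name no litter or sort day for a number.

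**Figure D1:**
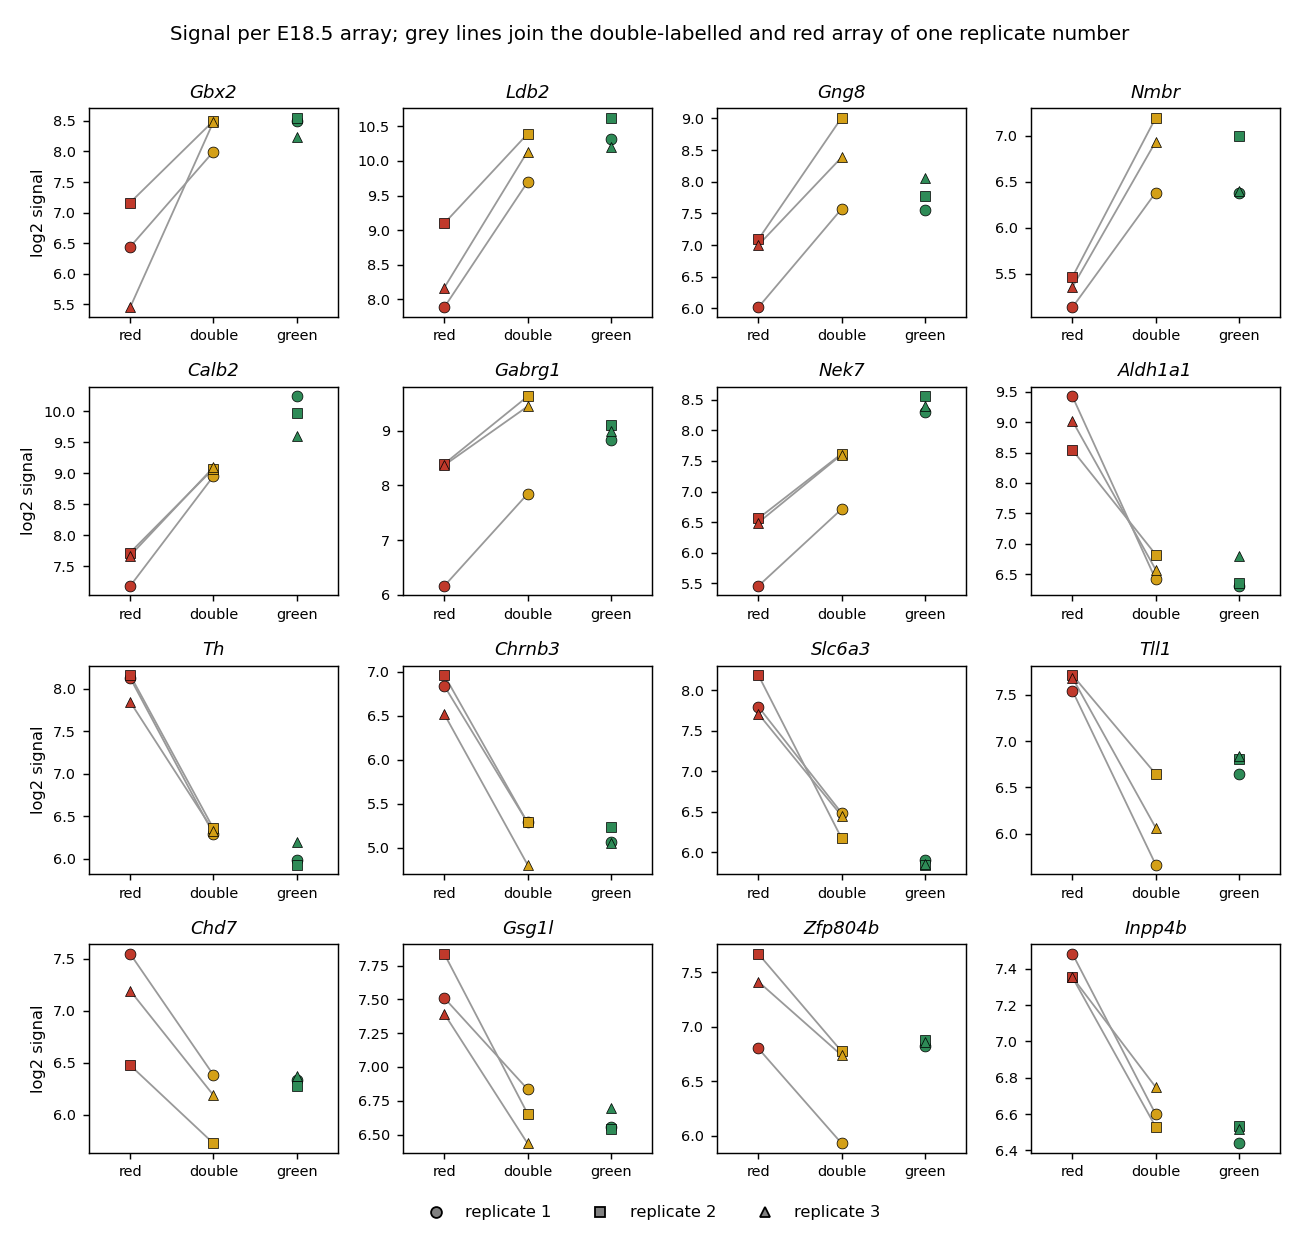
Log2 signal (y axis, own scale per gene) of Gbx2 and the 15 called genes in each E18.5 array of red, double-labelled and green cells (x axis), with symbols for replicate number and grey lines joining the red and double-labelled array of a pair. All 3 lines run in 1 direction for every gene shown, and for Gabrg1 and Nek7 the array of replicate 1 is the lowest of its population in red and in double-labelled cells.

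Of the 9 genes lower in double-labelled cells, 3 belong to the monoamine list: Th, Slc6a3 and Aldh1a1. Of all genes 0.0541% were called lower. The list was chosen with earlier results of these data known, so this count adds no support. Aldh1a1 also belongs to the retinoic acid list. Dopamine neurons make dopamine with tyrosine hydroxylase and the aromatic amino acid decarboxylase, load it into vesicles with a monoamine transporter and take it back up with the dopamine transporter. The 250 bases before the annotated starts of Th, Slc6a3 and Ddc, which has 2, are shown because these genes encode the first step, the reuptake and the second step of this chain and differed in 1 direction in all 3 pairs. They come from RefSeq (GRCm38.p6), and capitals mark a cAMP response element (CRE) or an NGFI-B response element (NBRE), the sequence that Nr4a2 and its relatives bind.
Th, chr7:142899996-142900245, minus strand: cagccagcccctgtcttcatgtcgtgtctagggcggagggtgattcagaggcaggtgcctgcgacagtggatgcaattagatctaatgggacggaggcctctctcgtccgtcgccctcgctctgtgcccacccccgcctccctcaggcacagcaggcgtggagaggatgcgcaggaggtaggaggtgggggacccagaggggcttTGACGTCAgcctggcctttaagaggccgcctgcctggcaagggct
Slc6a3, chr13:73536497-73536746, plus strand: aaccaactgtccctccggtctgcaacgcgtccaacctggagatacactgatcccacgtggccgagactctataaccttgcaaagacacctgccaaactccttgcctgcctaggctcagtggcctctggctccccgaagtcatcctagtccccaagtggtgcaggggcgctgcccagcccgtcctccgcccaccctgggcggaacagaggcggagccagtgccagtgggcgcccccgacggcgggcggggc
Ddc, chr11:11898145-11898394, minus strand: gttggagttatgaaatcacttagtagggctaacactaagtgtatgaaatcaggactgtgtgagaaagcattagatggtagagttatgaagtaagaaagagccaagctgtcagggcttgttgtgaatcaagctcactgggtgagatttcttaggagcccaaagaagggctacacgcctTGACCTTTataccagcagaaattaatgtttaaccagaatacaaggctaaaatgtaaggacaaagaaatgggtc
Ddc, other start, chr11:11890409-11890658, minus strand: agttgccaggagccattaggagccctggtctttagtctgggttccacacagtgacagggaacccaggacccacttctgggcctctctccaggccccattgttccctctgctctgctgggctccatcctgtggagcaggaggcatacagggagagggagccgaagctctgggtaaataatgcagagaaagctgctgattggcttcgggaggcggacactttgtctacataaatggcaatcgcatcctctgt
Both strands of the 300-base windows around gene starts were searched for TGACGTCA (CRE) and AAAGGTCA (NBRE), whose letters differ. A CRE stood in 1.79% and an NBRE in 1.51% of all 32851 windows. Of the 15 called genes 10 had a window, and 1 of these held a CRE (Th) and 1 an NBRE (Nmbr, within the 50 bases after its start). Ddc held an NBRE in 1 of its 2 windows.

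Th, tyrosine hydroxylase, was at 6.29, 6.36 and 6.33 in double-labelled replicates 1 to 3 and at 8.13, 8.16 and 7.85 in the red arrays of the same numbers. Every double-labelled array lay below every red one, and Th was 3.29-fold lower (difference -1.72, SE 0.12, limma adjusted p 0.00167). Green arrays were at 5.98, 5.93 and 6.19, also below every red array. Slc6a3, the dopamine transporter, was at 6.48, 6.17 and 6.45 in double-labelled and 7.79, 8.18 and 7.71 in red cells, 2.88-fold lower (-1.53, SE 0.15, adjusted p 0.00944). Its green arrays, between 5.85 and 5.90, were the lowest of the 3 populations. Aldh1a1, a retinaldehyde dehydrogenase that also detoxifies dopamine aldehydes and marks a subset of midbrain dopamine neurons, was at 6.41, 6.82 and 6.57 in double-labelled and 9.42, 8.54 and 9.02 in red cells. It was 5.24-fold lower (-2.39, SE 0.23, adjusted p 0.00944), the largest difference among the called genes, and ranged over the pairs from -3.01 in pair 1 to -1.72 in pair 2. Without pair 1 adjusted p was 0.0774 for Th, 0.129 for Slc6a3 and 0.132 for Aldh1a1, and without pair 3 it was 0.0452, 0.126 and 0.202.

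Other members of the monoamine list did not pass. Ddc, the decarboxylase, was at 5.65, 5.97 and 5.77 in double-labelled and 6.5, 6.84 and 6.36 in red cells, and did not overlap between the populations (-0.77, SE 0.11, adjusted p 0.0522). For Slc18a2, the vesicular monoamine transporter, the levels were 8.98, 9.61 and 9.62 against 9.67, 10.29 and 10.11 (-0.62, adjusted p 0.333), with green cells at a mean of 8.34. Gch1, which makes the cofactor of tyrosine hydroxylase, differed by -0.27 (adjusted p 0.568). Over the 15 monoamine genes tested 0 were called higher and 3 lower, 6 had an unadjusted p under 0.05, all 6 lower, and the median difference was -0.02. Of all genes 0.0361% were called higher and 0.0541% lower, and 8.12% had an unadjusted p under 0.05. The mean log2 level of the list was 6.25 to 6.53 in double-labelled, 6.65 to 6.96 in red and 6.20 to 6.35 in green arrays. In bulk samples, fewer cells of a type and less RNA per cell cannot be told apart.

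Transcription factors known from midbrain dopamine neurons had 0 of 26 members past limma's threshold, 2 higher and 8 lower at an unadjusted p under 0.05, and a median of -0.16, the lowest of the 27 lists. Over all genes 8.12% had such a p, in either direction. Nr4a2, a nuclear receptor needed for dopamine neuron fate, was at 6.93, 6.53 and 6.89 in double-labelled and 7.93, 8.04 and 7.78 in red cells (-1.13, SE 0.16, adjusted p 0.0573). The 2 populations did not overlap for it. The same was true of the forkhead factor Foxa1, at 5.91, 5.81 and 5.86 against 6.94, 7.04 and 6.40 (-0.94, adjusted p 0.0597), and of the helix-loop-helix factor Ebf3, at 6.21, 6.13 and 5.95 against 7.18, 6.72 and 6.93 (-0.85, adjusted p 0.0573). En1, a homeodomain factor of midbrain and anterior hindbrain, differed by -1.61 in pair 1 and by -0.63 and -0.57 in the others (-0.93, adjusted p 0.219). Pitx3, a homeodomain factor of dopamine neurons, differed by 0.02 and Lmx1b by -0.16. Bcl11a, a zinc finger factor of a dopamine neuron subset, was at 8.68, 9.24 and 8.90 in double-labelled and 7.45, 8.48 and 8.23 in red cells (0.89, adjusted p 0.0597). In green arrays Bcl11a was at 8.24, 8.45 and 8.45, within the range of the red ones. The list of hindbrain and isthmus factors had 0 of 18 members called, 1 higher and 1 lower at an unadjusted p under 0.05 (Dusp6, which damps FGF signalling, and En1), and a median of -0.02.

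Receptors of other transmitters were called in both directions. Chrnb3, a nicotinic acetylcholine receptor subunit found in dopamine neurons and the habenula, was at 5.29, 5.29 and 4.81 in double-labelled and 6.84, 6.96 and 6.52 in red cells. It was 3.12-fold lower (-1.64, SE 0.10, adjusted p 0.00155), with pair differences from -1.71 to -1.55, and passed whichever pair was left out. Green arrays were between 5.05 and 5.23. The means of double-labelled (5.13) and green cells (5.12) lay under 5.27, the level below which genes were left out as low, so Chrnb3 was tested through its level in red cells, and its fold rests on a group with low signal. Chrna6, its usual partner subunit, differed by -0.37 (adjusted p 0.465), and Chrnb3 was the only 1 of 26 nicotinic and monoamine receptors called. Nmbr, the receptor of the neuropeptide neuromedin B, was at 6.38, 7.19 and 6.93 in double-labelled and 5.13, 5.46 and 5.35 in red cells, 2.87-fold higher (1.52, SE 0.18, adjusted p 0.0244). Its red mean (5.32) lay close to 5.27, so this fold also rests on a group with low signal. With no filter on low values its limma adjusted p was 0.0702. Gabrg1, a gamma subunit of the GABA-A receptor, was at 7.84, 9.63 and 9.44 against 6.16, 8.40 and 8.37. Its groups overlapped because both arrays of replicate 1 were low, while each pair differed by 1.07 to 1.68 (2.51-fold higher, SE 0.14 on the log2 scale, adjusted p 0.0115). Without the block Gabrg1 had an adjusted p of 1. It was the 1 member called of 21 GABA and glycine receptor genes, and no other of them had an unadjusted p under 0.05. Gsg1l, an accessory subunit of AMPA-type glutamate receptors, was at 6.84, 6.66 and 6.44 against 7.51, 7.84 and 7.39, 1.91-fold lower (-0.94, SE 0.12, adjusted p 0.040). It was the 1 called of 39 glutamate transmission genes, of which 4 higher and 5 lower had an unadjusted p under 0.05. Of all genes tested, 0.0902% were called and 8.12% had such a p.

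**Figure D2:**
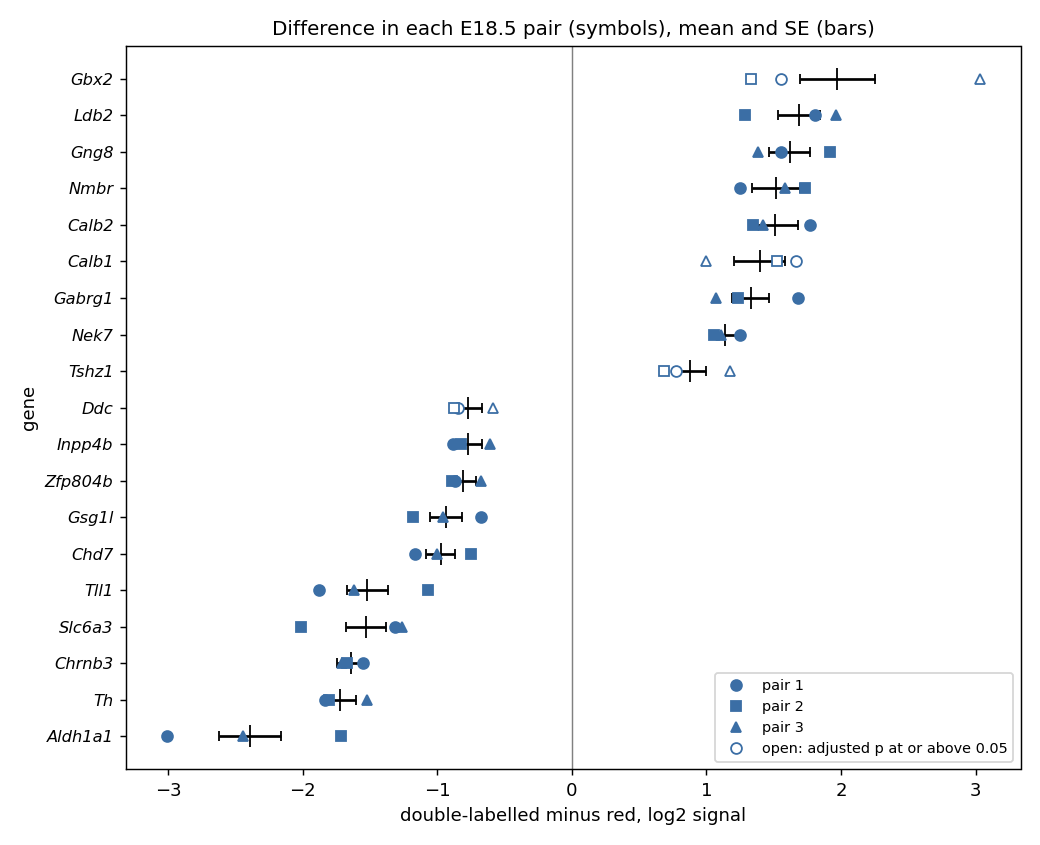
Difference in log2 signal, double-labelled minus red at E18.5 (x axis), for 19 genes (y axis), with a symbol per pair and bars for the mean and its SE. Open symbols are Gbx2, Calb1, Tshz1 and Ddc, which did not pass. No gene has pairs on both sides of 0, but genes other than Gbx2 were chosen with pairs of the same sign. For those genes the shared sign is no result.

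Higher in double-labelled cells were a LIM-domain cofactor, a calcium-binding protein and a G-protein subunit. Ldb2, which links LIM-homeodomain factors such as Lhx2 and Lhx9 into complexes, was at 9.69, 10.39 and 10.14 in double-labelled and 7.89, 9.10 and 8.17 in red cells. All double-labelled arrays lay above the red ones, by 3.22-fold (1.69, SE 0.16, adjusted p 0.00944), and green arrays were between 10.21 and 10.62. Calb2, calretinin, which buffers calcium in midline thalamic neurons among others, was at 8.95, 9.07 and 9.10 against 7.18, 7.72 and 7.67, 2.85-fold higher (1.51, SE 0.17, adjusted p 0.0185). Green cells were higher still, at 10.24, 9.97 and 9.60. Gng8, a G-protein gamma subunit known from the habenula and the olfactory system, was at 7.57, 9.01 and 8.39 against 6.02, 7.09 and 7.0, 3.07-fold higher (1.62, SE 0.15, adjusted p 0.00944). Nek7, a mitotic kinase that also serves inflammasome assembly, was at 6.71, 7.62 and 7.60 against 5.46, 6.56 and 6.49, 2.20-fold higher (1.14, SE 0.11, adjusted p 0.00944), with green arrays at 8.30 to 8.55. None of the 6 higher genes passed without the block, where adjusted p was from 0.078 for Calb2 to 1 for Gabrg1 and Nek7. Without pair 2 Ldb2 passed (adjusted p 0.0287), without pair 1 or pair 3 none of the 6 did.

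Gbx2 was at 8.0, 8.50 and 8.48 in double-labelled and 6.44, 7.16 and 5.45 in red cells, 3.93-fold higher. The pairs differed by 1.56, 1.33 and 3.03, and with this spread the gene did not pass (SE 0.28, adjusted p 0.0573). Another transcript cluster of Gbx2 differed by 0.80. Green arrays, at 8.50, 8.55 and 8.23, overlapped the double-labelled ones. Among 26 thalamic transcription factors 0 passed, 6 higher and 4 lower had an unadjusted p under 0.05, and the median was -0.06. Such a p was found for 8.12% of all genes. Lhx2 was at 8.52, 8.66 and 8.52 against 8.28, 7.15 and 7.59 (0.89, adjusted p 0.285). Its red array of replicate 1 was the highest of the 3 red arrays. Lhx9, the related LIM-homeodomain factor, differed by 0.41 (adjusted p 0.357), the orphan receptor Rorb by 0.56 (0.254), and Tcf7l2 by 0.36. Zfhx4, a large zinc finger homeobox factor, stood at 7.59, 8.27 and 8.27 against 8.90, 9.02 and 8.96 (-0.92, adjusted p 0.0573), and the progenitor factor Sox2 at a mean of 9.97 against 10.70 (-0.74, 0.254). The populations did not overlap for Gbx2, Lhx2, Lhx9, Rorb, Tcf7l2, Zfhx4 or Sox2, which held for 4.18% of all genes. Most of these were named for a small p, which favours this, and for Gbx2 it follows from the sort. Ldb2 was the 1 called of 19 LIM-homeodomain and cofactor genes. Tshz1, a zinc finger factor, was at 8.30, 9.42 and 8.95 against 7.52, 8.73 and 7.77, with groups that overlapped (0.88, adjusted p 0.0502). In green arrays Tshz1 was at 7.70, 7.82 and 7.77, below every double-labelled array and within the range of the red ones.

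Further lower genes were Tll1, Chd7, Zfp804b and Inpp4b. Tll1, a secreted metalloprotease that releases BMP signals, was at 5.67, 6.64 and 6.07 in double-labelled and 7.54, 7.71 and 7.68 in red cells, 2.87-fold lower (-1.52, SE 0.15, adjusted p 0.0105). Its double-labelled arrays spread over almost 1 log2 unit while the red ones lay close together. The green mean of Tll1, 6.76, lay between the double-labelled (6.13) and the red mean (7.64). Chd7, a chromatin remodeller mutated in CHARGE syndrome, was at 6.38, 5.73 and 6.19 against 7.55, 6.48 and 7.19, 1.96-fold lower (-0.97, SE 0.11, adjusted p 0.0185). Both of its replicate 2 arrays were the lowest of their population, and without the block adjusted p was 1. Zfp804b, a zinc finger gene, was at 5.93, 6.77 and 6.74 against 6.80, 7.67 and 7.41, 1.76-fold lower (-0.81, SE 0.10, adjusted p 0.0261), with pairs from -0.89 to -0.67. In green arrays Zfp804b was at 6.82, 6.88 and 6.86, above every double-labelled array and within the range of the red ones. Inpp4b, a phosphatase of phosphoinositide lipids, was at 6.60, 6.53 and 6.75 against 7.48, 7.35 and 7.35, 1.71-fold lower (-0.77, SE 0.10, adjusted p 0.0461). In the fits without 1 pair Tll1 passed without pair 2 alone, and Chd7, Zfp804b, Inpp4b and Gsg1l passed in none.

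Calcium-binding proteins had 1 member called of 25 (Calb2), 6 higher and 1 lower at an unadjusted p under 0.05, and a median of 0.11, the highest of the 27 lists. Calb1, calbindin, was at 7.54, 9.17 and 8.32 in double-labelled and 5.88, 7.64 and 7.32 in red cells (1.40, SE 0.19, adjusted p 0.0502), and the EF-hand protein Necab1 at 9.43, 9.64 and 9.77 against 8.81, 8.69 and 8.76 (0.86, adjusted p 0.0606). Of 58 neuropeptide and receptor genes Nmbr was the 1 called, and 10 higher and 1 lower had an unadjusted p under 0.05. For both lists the share over all genes was 0.0902% called and 8.12% at such a p, 847 genes higher and 504 lower. The 1 lower neuropeptide gene was Cck, cholecystokinin, at 7.14, 7.91 and 7.30 against 7.93, 9.40 and 8.59 (-1.19, adjusted p 0.0903). Nts, neurotensin, was at 6.27, 7.71 and 6.72 against 5.10, 5.71 and 5.10 (1.60, adjusted p 0.096) and did not overlap between the populations. The retinoic acid list had Aldh1a1 called of 15 genes and a median of 0.05. Its other wide difference was that of Crabp2, which binds retinoic acid in the cytoplasm, at 9.72, 10.94 and 10.21 against 7.60, 9.44 and 7.69 (2.05, SE 0.31, adjusted p 0.0597). Its pair differences were 2.12, 1.5 and 2.52. In green arrays Crabp2 was at 8.08, 9.27 and 9.13, within the range of the red ones.

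The habenula list had 3 members called of 16, and they did not share a direction: Chrnb3 was lower and Calb2 and Gng8 were higher. Its median was -0.02, and Pou4f1, the factor that defines habenular neurons, differed by -0.01 (adjusted p 0.995). Prethalamic and GABAergic genes had 0 of 22 members called, with 1 higher and 2 lower at an unadjusted p under 0.05. Axon guidance had 0 of 62, with 9 higher and 7 lower, and cadherins, contactins and adhesion molecules 0 of 62, with 12 higher and 9 lower. Among these, Ntn1, the netrin guidance cue, was at 6.19, 6.11 and 6.03 against 7.06, 6.86 and 6.52 (-0.70, adjusted p 0.0597). Cdh11, a type II cadherin, was at 8.08, 8.15 and 8.62 against 9.00, 9.51 and 9.49 (-1.05, adjusted p 0.0651), and the contactin-associated protein Cntnap5b at 7.96, 7.99 and 8.03 against 7.43, 6.91 and 6.69 (0.98, adjusted p 0.0804). In green arrays Cntnap5b was at 6.97, 6.76 and 7.04, within the range of the red ones. Ion channels had 0 of 52 members called, with 4 higher and 6 lower at an unadjusted p under 0.05. Over all genes 0.0902% were called and 8.12% had such a p, 847 higher and 504 lower. The lists were chosen with earlier results of these data known, so a larger share in a list adds no support.

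Lists of other cell types and states had no member called by limma, where 0.0902% of all genes were called. The 6 lists of vascular, blood, meningeal or choroid plexus, microglial, oligodendroglial and astroglial genes held 62 tested genes together. Of these, 2 higher and 5 lower had an unadjusted p under 0.05, against 8.12% of all genes in either direction. Their mean log2 levels overlapped between double-labelled and red arrays in all 6 lists, as in astrocytes and radial glia at 6.07 to 6.16 against 6.12 to 6.44. Aqp4, an astrocyte water channel, stood between 5.31 and 5.51 in the 6 arrays and Pecam1 of endothelial cells between 5.20 and 5.37, where the 25% of genes with the lowest mean lay under 5.27. Fabp7, a fatty acid binding protein of radial glia, was at 7.29, 9.03 and 7.92 against 9.97, 9.71 and 9.47 (-1.64, SE 0.42, adjusted p 0.328). Slc1a3, a glutamate transporter of the same cells, had the smallest p of the astrocyte and radial glia list and the opposite sign, at 6.09, 6.16 and 6.22 against 5.60, 5.69 and 5.35 (0.61, SE 0.13, adjusted p 0.243). Neither of these genes overlapped between the populations. Of the remaining lists, neural progenitors had 3 higher and 4 lower of 22 at an unadjusted p under 0.05, neuronal identity 1 and 3 of 15, immediate early and stress genes 1 and 1 of 25, and cortical excitatory neurons 1 and 2 of 10. Hypothalamus with pretectum and zona limitans had 0 and 2 of 18, the 2 being Foxa1 and Ebf3 given above. In all, 18 of the 27 lists had no member called, with medians from -0.16 to 0.07, at a share of 0.0902% called over all genes. The part of any other cell type in the 15 called genes was not tested.

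**Figure D3:**
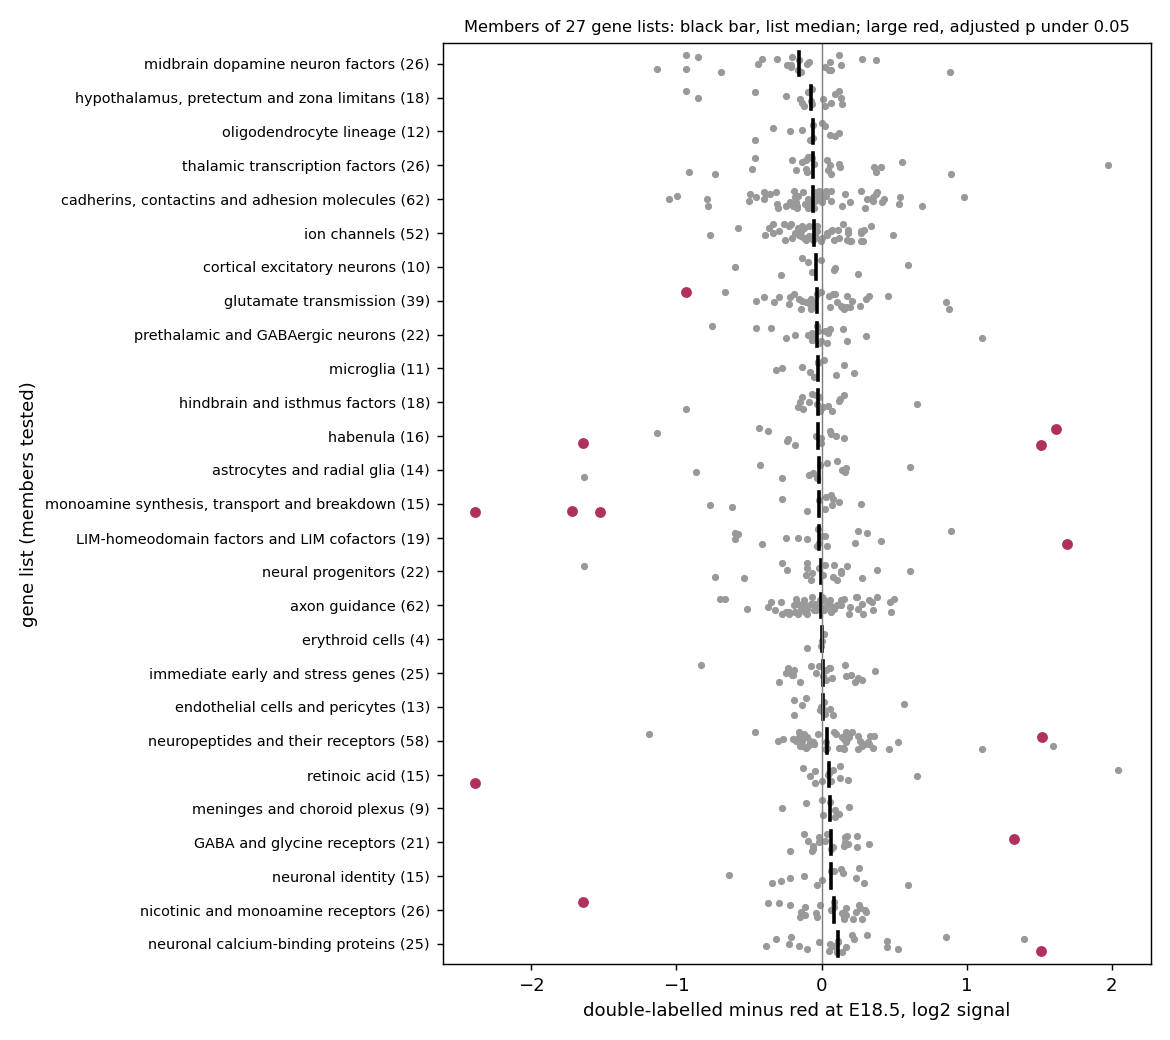
Difference in log2 signal, double-labelled minus red at E18.5 (x axis), for every tested member of the 27 gene lists (y axis, members tested in brackets). Black bars are list medians, between -0.16 and 0.11, and large red points are the called genes, from -2.39 (Aldh1a1) to 1.69 (Ldb2).

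The called genes were then read on the E14.5 arrays, where green cells carry EGFP and red cells the tdTomato mark. By their names these populations differ in the lineage mark as well as in EGFP, and tamoxifen was given at E9.5. The E18.5 populations share the mark, so the 2 comparisons are not alike. There limma called 1339 genes (8.05%), 646 higher (3.88%) and 693 lower (4.17%) in green than in red cells. Of the 15 genes, 4 passed in the same direction as at E18.5, 1 passed in the opposite direction and 10 did not pass. Nek7 was at 8.11, 8.44 and 8.50 in E14.5 green and 6.27, 5.99 and 6.96 in red cells (green minus red 1.95, SE 0.22, adjusted p 0.00217). Gng8 was at 9.24, 9.48 and 9.51 against 8.71, 7.87 and 8.23 (1.14, SE 0.19, adjusted p 0.00808). Zfp804b (-0.59, adjusted p 0.00555) and Tll1 (-1.21, adjusted p 0.0132) were lower in green cells. Calb2 was opposite, at 5.60, 5.36 and 5.44 in green and 5.98, 5.95 and 6.52 in red cells (-0.69, adjusted p 0.0283). In the 6 fits without 1 E14.5 array Nek7, Gng8 and Zfp804b passed each time, and Tll1 and Calb2 in 3 each. They were lost without red replicate 1, green replicate 2 and green replicate 3, at an adjusted p of up to 0.0686 for Tll1 and 0.121 for Calb2. In a fit of all 15 arrays Nek7 (adjusted p 0.00288) and Tll1 (0.0119) passed, and Gng8 (0.101), Zfp804b (0.24) and Calb2 (0.0732) did not, nor did Gbx2 (0.277) and Tshz1 (0.221).

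None of the 3 called monoamine genes passed at E14.5. The mean of all values was 5.63 to 5.65 in E14.5 and 6.17 to 6.19 in E18.5 arrays, so levels are not compared between the stages. Th, Slc6a3, Aldh1a1, Chrnb3, Nmbr, Gabrg1 and Inpp4b, which did not pass there, lay below the E14.5 mean in all 6 arrays. Their small differences at E14.5 rest on low signal. Zfp804b, which passed, lay below that mean as well. Th was between 5.01 and 5.16 in all 6 E14.5 arrays (green minus red 0.02, adjusted p 0.909), Slc6a3 differed by 0.12 (0.621), Aldh1a1 by -0.06 (0.804) and the receptor subunit Chrnb3 by 0.04 (0.791). Slc18a2, which did not pass at E18.5, was lower in E14.5 green than red cells (-1.92, adjusted p 0.0096). Nmbr, between 4.56 and 4.74, differed by -0.11 (0.423), and Ldb2, between 7.96 and 8.07, by 0.00 (0.998). Gbx2 was higher in E14.5 green cells, at 7.88, 8.21 and 8.13 against 7.33, 7.28 and 7.30 (0.77, adjusted p 0.00338), again between populations sorted on EGFP. Other genes described here missed the threshold at E18.5 and passed at E14.5. With the same sign at both stages stood Calb1 (green minus red 2.97, adjusted p 1.6e-04), Lhx2 (1.03, 9.8e-04), Lhx9 (0.89, 0.00262), Slc17a6 (0.46, 0.0285) and Cdh11 (-1.14, 0.00665), besides Gbx2 and Slc18a2. With the opposite sign stood Fabp7 (1.40, 0.0115), Foxa1 (0.73, 0.035), Bcl11a (-0.52, 0.0385), Tshz1 (-0.83, 0.0176), Slc1a3 (-1.01, 0.0152), Necab1 (-1.12, 0.00523) and Crabp2 (-1.52, 0.0187). Whether any gene's difference changed between the stages was not tested.

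**Figure D4:**
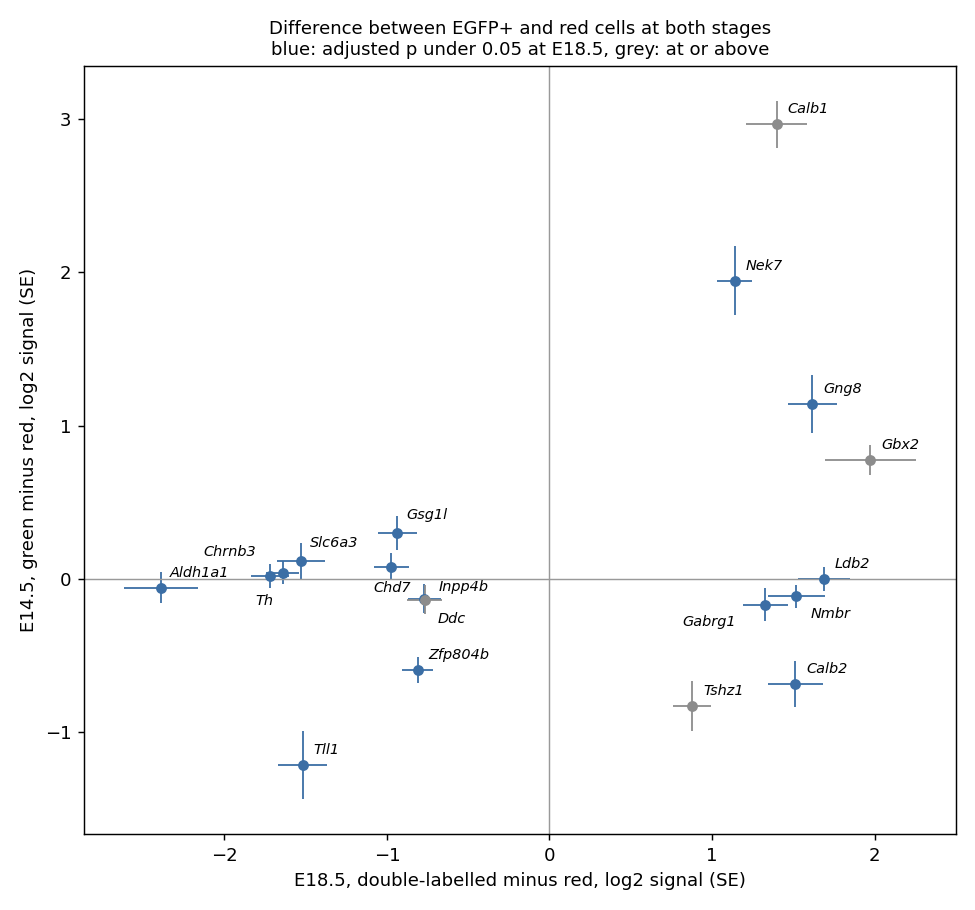
Difference in log2 signal at E18.5, double-labelled minus red (x axis), against E14.5, green minus red (y axis), for 19 genes, with SE bars. Th, Slc6a3, Aldh1a1 and Chrnb3 lie far left at E14.5 differences between -0.06 and 0.12, with E14.5 signals below the array mean. Nek7 and Gng8 are higher in the EGFP-positive cells at both stages. By their names, the E14.5 populations differ in the tdTomato mark as well as in EGFP, unlike those at E18.5.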

How the data were processed

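Total RNA of sorted cells was measured on Affymetrix arrays. The log2 values are those the authors deposited, 1 per transcript cluster and array. Per the submitters' processing notes they come from Affymetrix Expression Console, with version and algorithm not given in the sources used here, and per the labels' protocols a Nugen Ovation Pico kit amplified 10 ng RNA per sample; the part of this step in the spread was not tested. Of 33794 transcript clusters 23521 named 1 gene, 1814 several and 8459 none in the platform annotation. By Entrez identifier 23328 matched RefSeq (GRCm38.p6), with 0 symbols changed. For 1082 of 22180 genes with several clusters the one with the highest E18.5 mean was used, and the 25% of genes with the lowest E18.5 mean, under 5.27, were left out.

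Limma 3.58.1 in R 4.3.3 was fitted to the 9 E18.5 arrays with population means and replicate number as a fixed block shared by double-labelled and red arrays. Green arrays added to the estimate of the spread (4 residual degrees of freedom, 8.6 after moderation). Arrays of 1 population correlated at 0.981 to 0.985 in green, 0.937 to 0.963 in red and 0.933 to 0.982 in double-labelled cells. Whether the green arrays made the estimate too small for the compared ones was not tested. The fit of the 6 compared arrays alone is given below. The E14.5 arrays, which vary less, were fitted apart, without a block (4 and 8.7). Tests were two-sided, with Benjamini-Hochberg adjustment over 16635 genes. SEs come from the fits. The number of arrays limits the precision, and no depth applies. The code was tested on simulated data. Figures used Python 3.11.15 and matplotlib 3.10.9.

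The comparison, the 27 lists and the rule for named genes were chosen with earlier results of these data known. The rule took Gbx2, up to 15 called genes per direction with 3 pairs of 1 sign, the next by p up to 10 per direction, and the 4 members of each list with the smallest p. Predicted genes, clones, small RNAs and receptor segments stayed unnamed. Of the list members, those that add to the groups described were given. Tcf7l2, Slc17a6, Gad1, Aqp4, Pecam1, Pitx3, Lmx1b, Pou4f1 and Gch1 were given as defining markers or pathway members. 1 gene that the rule names is not reported here. Alternatives were other blocks, other arrays in the fit, quantile normalization, other filters, another rule for transcript clusters, an intensity trend and each pair left out.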

Additional observations from a re-analysis of the deposited data

How the results depend on the processing

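The 15 calls at E18.5 depended on the pairing, on the arrays in the fit and on each pair. With no replicate block, the 9 E18.5 arrays gave 4 calls, and all 15 arrays gave 15, of which 10 were shared with the paired fit. With a random replicate block 24 genes passed, 11 of them shared. With a replicate block shared by all 3 E18.5 populations 11 passed, 9 of them shared. With the replicate block and all 15 arrays 90 passed, with 1 weight per stage 58, and with 50% of genes left out 43. With no filter on low values 11 passed, all among the 15. Lost there were Calb2 and Inpp4b (limma adjusted p 0.059 each) and Nmbr and Gsg1l (0.0702 each). The fits without 1 pair gave 1 to 7 calls. The 6 compared arrays alone gave 15 calls (10 higher, 5 lower), 11 of them shared, and quantile normalization gave 11, all among the 15. Lost on the 6 arrays were Chd7 (limma adjusted p 0.131), Gsg1l (0.209), Zfp804b (0.213) and Inpp4b (0.224). Differences of the 15 genes kept their sign in every alternative run in which they were tested. Chrnb3 was not tested with 50% of genes left out. The cause of these changes was not tested, except that fewer genes or samples enter some fits. At E14.5 the count was 567 with all 15 arrays, 542 to 2568 without 1 array, and 1830 with a replicate block.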
